A study of Mus musculus with 10 samples.

Results

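The genes of polycomb repressive complex 1 (PRC1) were examined in bone marrow (BM) after transplant of fetal liver cells, hematopoietic stem cells (HSCs) included, from vitamin D-deficient, VD(-), or vitamin D-sufficient, VD(+), embryos. The 10 genes were chosen by what their products do, namely Pcgf1, Pcgf2, Pcgf3, Bmi1, Pcgf5 and Pcgf6 of the PCGF family, the ubiquitin ligases Ring1 and Rnf2, and the chromobox genes Cbx2 and Cbx7. Each of the 10 had 1 probe set that lists that gene alone, among 19938 genes measured in this way and 35556 probe sets in all. Total RNA was hybridized to 10 arrays of HSC recipient BM, 5 a group, and in each group 3 arrays held single samples and 2 held pools. The donor cells came from embryos of dams fed a VD(-) or a VD(+) diet, and both groups of recipients were VD-sufficient C57BL6 mice that had been lethally irradiated before transplant. The labels give mice of 8 weeks and both sexes. The sources differ on the time of collection after transplant. Donors were CD45.2+ and recipients CD45.1+. By the paper's methods, donor cells were mixed from male and female embryos, and recipients below a minimum of donor chimerism were not used. Some host cells may thus be present. The labels do not say which mice were pooled or of which sex they were, so that the p-values cover spread from array to array, which may be technical in part.

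PRC1 is a family of chromatin complexes that keep developmental genes silent. Every complex is built on RING1 or RNF2, which attaches ubiquitin to a lysine of histone H2A, and on a single PCGF partner that sets which other subunits join. Complexes with PCGF2 or BMI1 can hold a CBX protein, which reads the methyl mark that polycomb repressive complex 2 (PRC2) places on histone H3. Complexes with the other PCGF proteins hold RYBP or YAF2 in its place, and the one with PCGF1 is brought to unmethylated CpG sites by KDM2B. In mouse marrow Bmi1 is known for sustaining the self-renewal of HSCs by keeping the cell cycle inhibitor gene Cdkn2a silent.

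Since CpG-rich starts of genes are where the KDM2B complex binds, the RefSeq windows at the starts of the PRC1 genes themselves were read from the GRCm38.p6 table. These windows lie mostly before the start. The table held 10 windows of 8 of the genes, with entries for neither Pcgf1 nor Cbx2. The 2 windows below are those of Bmi1 (chr2:18676768-18677067, plus strand) and of its closest paralog Pcgf2 (chr11:97699599-97699898, minus strand), shown because the pair can replace each other in canonical complexes but differ in CpG content. They are written 5′ to 3′ with each CpG in capitals.
Bmi1: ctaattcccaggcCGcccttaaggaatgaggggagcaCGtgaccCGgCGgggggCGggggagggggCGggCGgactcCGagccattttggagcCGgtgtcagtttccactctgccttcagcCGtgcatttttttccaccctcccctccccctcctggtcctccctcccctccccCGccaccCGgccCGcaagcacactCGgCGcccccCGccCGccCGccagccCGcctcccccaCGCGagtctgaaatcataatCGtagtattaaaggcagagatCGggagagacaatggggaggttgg
Pcgf2: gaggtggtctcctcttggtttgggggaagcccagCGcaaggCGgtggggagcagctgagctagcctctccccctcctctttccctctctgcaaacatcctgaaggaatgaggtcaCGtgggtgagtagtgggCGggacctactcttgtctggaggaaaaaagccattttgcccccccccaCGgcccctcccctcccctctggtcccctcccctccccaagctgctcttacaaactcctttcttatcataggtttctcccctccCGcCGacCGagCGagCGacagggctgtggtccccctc
The Bmi1 window held 23 CpG sites and the Pcgf2 window 10. Over the 10 windows of the PRC1 genes the median was 26.5 CpG sites, against 7 over all 32851 windows of the table, whose upper quartile was 20. Ring1 held 37 CpG sites and Rnf2 30, and the 3 windows of Pcgf5 held 34, 5 and 35. A GC box, GGGCGG on either strand, was found in 8 of the 10 windows and in 35.7% of all windows, and Bmi1 held 6 of them. An E-box, CACGTG, was found in the windows of Bmi1 and Pcgf2, which are 2 of 10, and in 7.15% of all windows. A nuclear receptor half-site, AGGTCA or GGTTCA, was found in 3 of 10 windows (Pcgf2, Pcgf6 and Cbx7) and in 24.8% of all, and in Pcgf2 it shared 2 bases with the E-box. Exact direct repeats of the same half-site, AGGTCA or GGTTCA, with a gap of 3 bases matched in 0 of 10 windows and in 0.0122% of all. The vitamin D receptor is known to bind repeats of this form. Mixed and inexact repeats were not searched, and so rare a match cannot tell these 10 windows from the rest. The letters CCGGAAG of ETS factors (8.86% of all windows) and TTTCGCGC or TTTGGCGC of E2F factors (0.813%) matched in 0 of 10.

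The values are log2 signals after RMA, and all 10 PRC1 genes had a mean over the 10 arrays above that of the median probe set, which was 4.74. The arrays correlated with each other at 0.980 to 0.989. A label field names BM macrophages, but the arrays showed mixed marrow. Above the median probe set were 11 of 11 measured markers of B cells, 12 of 12 of neutrophils, 10 of 10 of erythroid cells, 11 of 11 of monocytes and macrophages and 8 of 11 of T and NK cells. So were 8 of 8 of megakaryocytes, 7 of 10 of stem and progenitor cells, 7 of 9 of stroma and 7 of 8 of endothelium. This cut is low, as at least 10299 of the 19938 genes lay above it, and it does not show how much of a cell type was present. In mixed marrow fewer cells of a type and less RNA per cell cannot be told apart. On the Y chromosome, Kdm5d, Eif2s3y and Uty together averaged 6.64, 6.80 and 5.31 in VD(-) replicate 1, VD(-) pool 1 and VD(-) pool 2, and lay between 2.25 and 2.56 in the other 7 arrays. Xist, which is made in female cells, had 7.76, 8.14 and 9.83 in those 3 arrays and 10.08 to 10.33 in the other 7. This Y-linked signal was thus found in VD(-) arrays and in none of the VD(+) arrays, and each PRC1 gene is also given without those 3 arrays. That fit leaves only VD(-) replicates 2 and 3 against the 5 VD(+) arrays, so that each of them weighs heavily. Donor pools of both sexes, as the methods describe, were not visible as Y-linked signal in the other 7 arrays. The reason was not tested.

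Of the 10 PRC1 genes, Pcgf1 alone differed at a nominal p under 0.05 between VD(-) and VD(+) HSC recipient BM, and 0 passed an adjusted p under 0.05 over all probe sets by limma, where 0.118% of probe sets did. The methods' test likewise gave 1 gene at a nominal p and 0 after adjustment. The exact permutation test also gave Pcgf1 alone under 0.05. Over all genes 7.56% passed the nominal p by the methods' test and 7.48% by the permutation test. Over all genes 7.00% passed the nominal p by limma and 4.05% passed it as higher in VD(-), so that 1 of 10 is close to the share of genes in general. When the ratio limits of the methods were added to the nominal p, 1 of the 10 again passed, and 5.30% of all genes did, 2.35% as higher. The 5 arrays of VD(-) and the 5 of VD(+) overlapped for each of the 10 genes, whereas they did not for 1.73% of all genes. The median log2 fold change, VD(-) less VD(+), was −0.0033 over the PRC1 genes and 0.0010 over all genes. Of the 10 differences, 5 were above 0, as were 50.3% of those of all genes, and the median size without sign was 0.076 for the PRC1 genes and 0.079 for all genes.

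**Figure D1:**
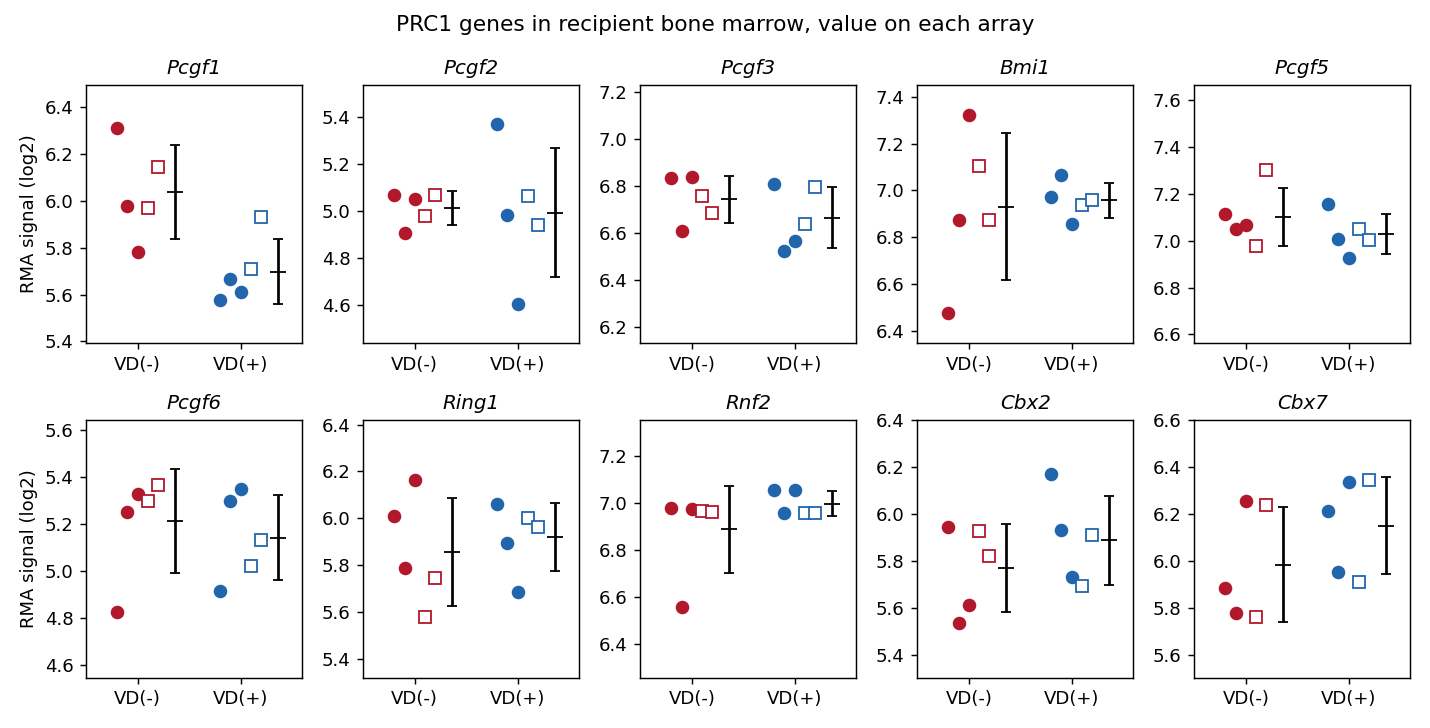
RMA signal (log2, vertical axis) of the 10 PRC1 genes on each array of VD(-) (red, left) and VD(+) (blue, right) HSC recipient BM, with filled circles for replicates 1 to 3, open squares for pools 1 and 2, and the mean ± SD of the 5 arrays in black. All panels span the same range of log2 units, and the groups overlap in each, with Pcgf1 the most apart at 6.04 ± 0.20 in VD(-) and 5.70 ± 0.14 in VD(+).

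Pcgf1 encodes the PCGF subunit of the complex that KDM2B and BCOR join. Its log2 values in VD(-) replicates 1, 2 and 3 and pools 1 and 2 were 6.31, 5.98, 5.78, 5.97 and 6.14. In the same order the VD(+) arrays had 5.58, 5.66, 5.61, 5.71 and 5.93. The lowest VD(-) array, replicate 3, lay above 4 of the VD(+) arrays and below VD(+) pool 2, and this was the only overlap. Pcgf1 averaged 6.04 ± 0.20 in VD(-) against 5.70 ± 0.14 in VD(+) (SD, n = 5 each), which differ on the log2 scale by 0.34 (SE 0.11, 95% interval 0.10 to 0.58) or a ratio of 1.26. The nominal p was 0.00963 and the adjusted p 0.542 from limma, and the exact permutation test of 5 arrays against 5, two-sided, gave p = 0.0159, where the smallest it can give is 0.00794. The difference was 0.41 within the single samples and 0.24 within the pools. It stayed between 0.27 and 0.40 in the 10 fits that each left out 1 array, and each of them passed a nominal p under 0.05 by limma.

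The Y-linked signal also differed between the groups, and Pcgf1 was set beside this signal. The 3 VD(-) arrays that carry it had 6.31, 5.97 and 6.14, and the other 2 VD(-) arrays had 5.98 and 5.78. With the Y-linked mean less Xist as a covariate the log2 fold change of Pcgf1 was 0.21 (adjusted p = 0.786 from limma), and without the 3 arrays it was 0.18 (adjusted p = 0.912 from limma), neither past a nominal p under 0.05. With that covariate the 1 PRC1 gene at a nominal p under 0.05 was Cbx2 and not Pcgf1. Markers of monocytes and macrophages also moved with the groups. Among 11 measured, 10 had a positive difference and 4 passed the nominal p as higher, against 50.3% and 4.05% of all genes. Their list mean was 7.91 to 8.16 in VD(-) and 7.31 to 7.76 in VD(+), and all 11 were above the median probe set. The sizes were uneven, with log2 fold changes of 1.70 for Cd14 and 0.84 for Vsig4 but 0.022 for Csf1r and −0.023 for Cx3cr1. Only 1 of the 11 passed an adjusted p, Cd14 (0.0109 from limma). Within VD(-) the list mean in replicates 1, 2 and 3 and pools 1 and 2 was 7.98, 7.94, 7.91, 8.16 and 7.91. In the same order Pcgf1 had 6.31, 5.98, 5.78, 5.97 and 6.14. Only VD(-) arrays carry the Y-linked signal, so that the fits with its covariate or without the 3 arrays cannot fully tell its part in Pcgf1 from that of the group. No fit held the marker mean, and its part in the difference of Pcgf1 was not tested.

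**Figure D2:**
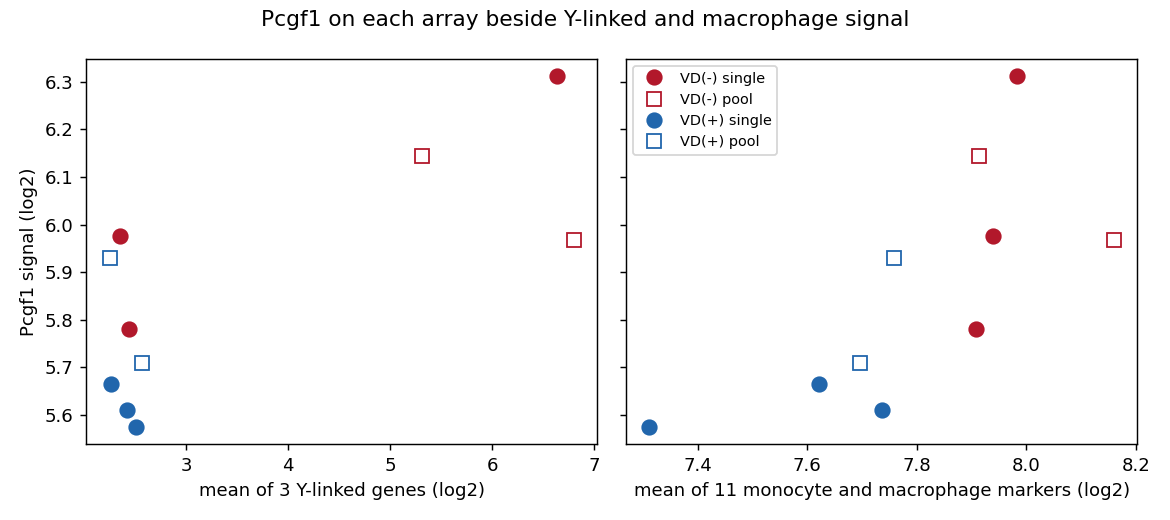
Pcgf1 signal (log2, vertical axis) on each array against the mean of 3 Y-linked genes (left, log2) and of 11 markers of monocytes and macrophages (right, log2), with VD(-) in red, VD(+) in blue, circles for single samples and open squares for pools. VD(-) replicate 1 and both VD(-) pools lie at a Y-linked mean of 5.31 to 6.80 and the 7 others between 2.25 and 2.56, and the 5 VD(-) arrays lie at a marker mean of 7.91 or more, to the right of all VD(+) arrays.

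The core ligases showed no difference past the spread of the arrays. Ring1, which encodes a catalytic subunit of the complex, had 6.01, 5.79, 6.16, 5.58 and 5.75 in VD(-) replicates 1, 2 and 3 and pools 1 and 2. The VD(+) arrays had 6.06, 5.89, 5.69, 6.0 and 5.96 in that order. Highest and lowest of the 10 values were both in VD(-), in replicate 3 and pool 1. The log2 fold change of Ring1 was −0.063 (SE 0.12, 95% interval −0.32 to 0.19, adjusted p = 0.939 from limma). It was 0.11 in the single samples and −0.32 in the pools, and 0.0066 without VD(-) pool 1, so that its direction depended on that array. Without the 3 arrays with Y-linked signal it was 0.055. Rnf2, also called RING1B and the more active of the 2 ligases in many mouse cells, had 6.98, 6.55, 6.98, 6.97 and 6.96 in VD(-) and 7.06, 6.96, 7.05, 6.96 and 6.96 in VD(+). Replicate 2 of VD(-) stood apart from the other 9 arrays, which lay within 6.96 to 7.06. The log2 fold change of Rnf2 was −0.11 (SE 0.091, 95% interval −0.31 to 0.091, adjusted p = 0.831 from limma). It was −0.026 without VD(-) replicate 2, −0.23 without the 3 arrays with Y-linked signal and −0.21 with that signal as a covariate, none of them past a nominal p under 0.05. Without those 3 arrays VD(-) is replicates 2 and 3 alone, so that the low replicate 2 has more weight in the −0.23.

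Bmi1 and its paralog Pcgf2 encode the PCGF subunits of canonical complexes. Bmi1 had 6.48, 6.87, 7.32, 7.10 and 6.87 in VD(-) replicates 1, 2 and 3 and pools 1 and 2, against 6.97, 7.06, 6.86, 6.94 and 6.96 in VD(+). The 5 VD(+) values lay inside the range of the VD(-) values, with replicate 1 of VD(-) lowest and replicate 3 highest. Bmi1 averaged 6.93 ± 0.31 in VD(-) against 6.96 ± 0.074 in VD(+) (SD, n = 5 each), which differ on the log2 scale by −0.028 (SE 0.13, 95% interval −0.33 to 0.27, adjusted p = 0.980 from limma). Without VD(-) replicate 1 it was 0.086, and without the 3 arrays with Y-linked signal 0.14. Pcgf2, known as MEL18, showed the opposite spread, with 5.07, 4.90, 5.05, 4.98 and 5.07 in VD(-) and 5.37, 4.98, 4.60, 5.06 and 4.94 in VD(+). Both the highest and the lowest value were here in VD(+), in replicates 1 and 3. Its log2 fold change was 0.021 (SE 0.12, 95% interval −0.25 to 0.29, adjusted p = 0.985 from limma), −0.076 without VD(+) replicate 3 and −0.016 without the 3 arrays with Y-linked signal. The SD of the 5 VD(-) arrays over that of the 5 VD(+) arrays was 4.24 for Bmi1, 3.46 for Rnf2 and 0.258 for Pcgf2. The SD was larger in VD(-) for 7 of the 10 PRC1 genes and for 49.7% of all genes, and the median SD within groups was 0.19 for the PRC1 genes and 0.16 for all genes.

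The chromobox genes Cbx2 and Cbx7 encode readers of the methyl mark, and CBX7 is the CBX protein known for HSC self-renewal. Cbx2 had 5.95, 5.53, 5.61, 5.93 and 5.82 in VD(-) replicates 1, 2 and 3 and pools 1 and 2, against 6.17, 5.93, 5.73, 5.69 and 5.91 in VD(+). The groups overlapped over most of their range, with VD(-) replicate 2 lowest and VD(+) replicate 1 highest. The log2 fold change of Cbx2 was −0.12 (SE 0.12, 95% interval −0.37 to 0.13, adjusted p = 0.860 from limma). It was −0.25 in the single samples and 0.074 in the pools, and −0.30 with the Y-linked signal as a covariate (adjusted p = 0.636 from limma), where it passed a nominal p under 0.05. Without the 3 arrays with Y-linked signal Cbx2 had a difference of −0.32 (adjusted p = 0.830 from limma), not past a nominal p under 0.05. That fit keeps VD(-) replicates 2 and 3, which at 5.53 and 5.61 were the lowest VD(-) arrays for Cbx2. Cbx7 had 5.89, 5.78, 6.26, 5.76 and 6.24 in VD(-) and 6.21, 5.95, 6.34, 5.91 and 6.34 in VD(+). The lowest 3 of the VD(-) arrays were below all of VD(+), and the other 2 lay among the VD(+) values. Its log2 fold change of −0.17 (SE 0.13, 95% interval −0.46 to 0.13, adjusted p = 0.828 from limma) was below 0 in the single samples (−0.19) and in the pools (−0.12). It was −0.13 without the 3 arrays with Y-linked signal and −0.065 with that signal as a covariate.

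Pcgf3, Pcgf5 and Pcgf6 encode PCGF subunits of variant complexes, of which those with PCGF3 or PCGF5 are known to bind AUTS2 and casein kinase and that with PCGF6 the factors MGA, MAX and E2F6. Pcgf3 lay between 6.61 and 6.84 in VD(-) and between 6.52 and 6.81 in VD(+), with a log2 fold change of 0.078 (SE 0.081, 95% interval −0.10 to 0.26, adjusted p = 0.873 from limma). Pcgf5 lay between 6.98 and 7.30 in VD(-) and between 6.93 and 7.16 in VD(+), with a log2 fold change of 0.073 (SE 0.077, 95% interval −0.096 to 0.24, adjusted p = 0.874 from limma). Both were above 0 in the single samples (0.13 and 0.047) and in the pools (0.0033 and 0.11), with overlapping groups. Without the 3 arrays with Y-linked signal Pcgf3 differed by 0.057 and Pcgf5 by 0.030. Pcgf6 had 4.82, 5.25, 5.33, 5.30 and 5.36 in VD(-) replicates 1, 2 and 3 and pools 1 and 2, against 4.92, 5.30, 5.35, 5.02 and 5.13 in VD(+). Replicate 1 was the lowest array of each group, although the number 1 does not tie these samples to each other. The log2 fold change of Pcgf6 was 0.071 (SE 0.12, 95% interval −0.20 to 0.34, adjusted p = 0.935 from limma), −0.053 in the single samples and 0.26 in the pools. It was 0.15 without the 3 arrays with Y-linked signal and 0.19 with that signal as a covariate.

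**Figure D3:**
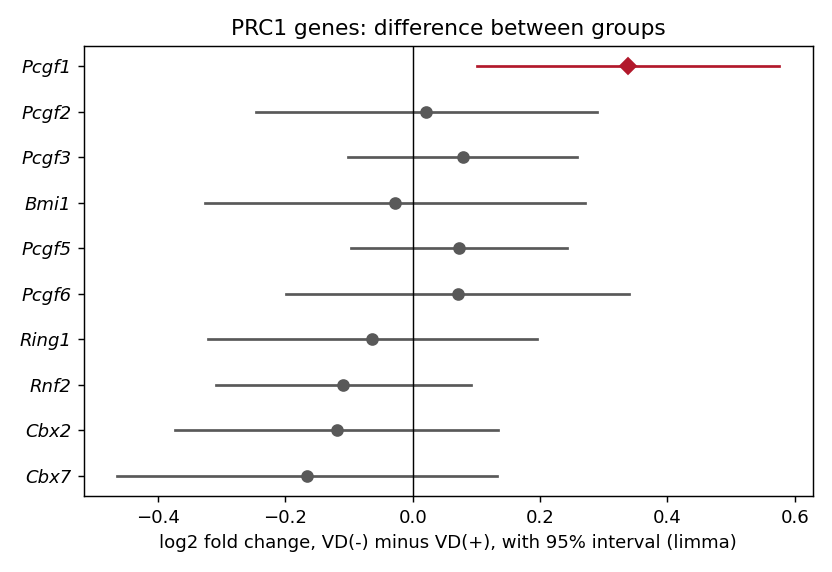
Log2 fold change, VD(-) minus VD(+) HSC recipient BM (horizontal axis), of the 10 PRC1 genes with the 95% interval from limma, where the red diamond passed a nominal p under 0.05 and grey circles did not. Pcgf1 stands at 0.34 with an interval of 0.10 to 0.58, and the intervals of the other 9 genes cross 0.

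Over the 9 genes other than Pcgf1 the 95% intervals reached down to a ratio of 0.725 for Cbx7 and up to 1.27 for Pcgf6, so that changes of that size are not excluded for those genes. For Rnf2 the interval of the ratio was 0.807 to 1.07, and for Bmi1 it was 0.798 to 1.21.

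Genes whose products join the PCGF proteins were taken from lists of known subunits. Of 32 measured partners and H2A deubiquitinases 0 passed a nominal p under 0.05 by limma or an adjusted one, with a median log2 fold change of 0.018 and a range from −0.19 for Cbx8 to 0.097 for Csnk2a1. By the methods' test 0 of the 32 passed as well, and by the exact permutation test 1 did, Csnk2a1 (p = 0.0476). Among 6 measured canonical partners, 3 were above 0 and the median was −0.010. Phc3, a polyhomeotic protein that polymerizes and compacts chromatin, had 0.089 (SE 0.076) and Cbx8, a further reader, −0.19 (SE 0.17). Among 19 variant partners, 12 were above 0 and the median was 0.018. Csnk2a1, the catalytic subunit of casein kinase, had 0.097 (SE 0.063) and 0.095 on its other probe set, and the deacetylase gene Hdac2 had 0.089 (SE 0.081). Among 7 genes of H2A deubiquitinases and their ASXL partners, 4 were above 0 and the median was 0.015. The list includes Bap1, whose product removes the mark of PRC1, and its partner Asxl1. Asxl1 had −0.12 (SE 0.084) and Bap1 −0.075 (SE 0.068).

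The partners of PCGF1 in its own complex were looked up after the values had been seen. Kdm2b, the CpG-binding subunit, lay between 5.03 and 5.23 in VD(-) and between 5.0 and 5.20 in VD(+), with a log2 fold change of 0.030 (SE 0.067, 95% interval −0.12 to 0.18, adjusted p = 0.954 from limma). Bcor, the X-linked scaffold that PCGF1 binds directly, had 0.0095 (SE 0.089, 95% interval −0.19 to 0.21) and its X-linked paralog Bcorl1 0.047 (SE 0.15, 95% interval −0.29 to 0.39). The deubiquitinase gene Usp7 had −0.059 (SE 0.062), and Yaf2 had 0.048 (SE 0.090). Its paralog Rybp, whose product excludes CBX proteins from the complex, had −0.14 (SE 0.17) and 0.056 on its other probe set. None of these 6 genes passed a nominal p under 0.05 by limma, and whether their change differed from that of Pcgf1 was not tested.

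**Figure D4:**
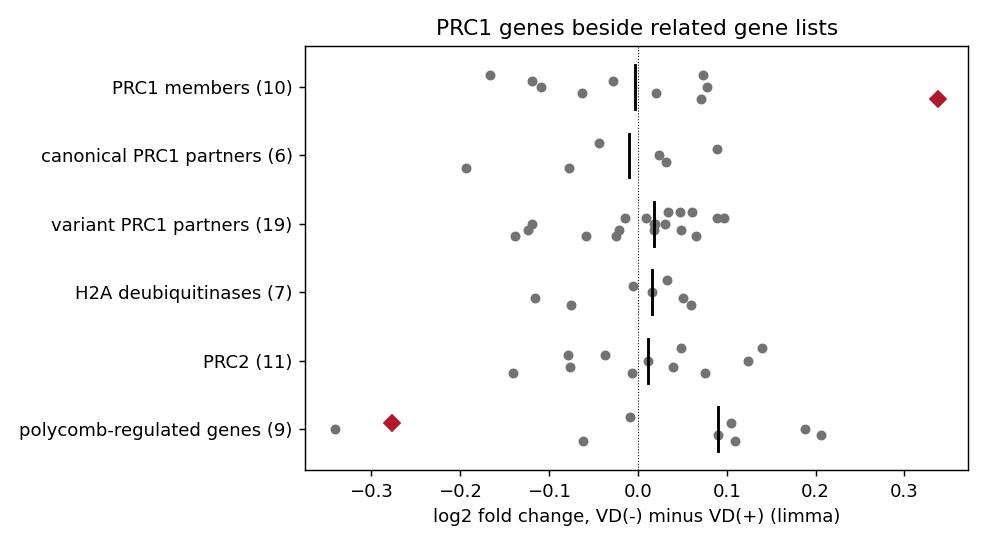
Log2 fold change, VD(-) minus VD(+) HSC recipient BM (horizontal axis, limma), of each measured gene of 6 lists, with the number of genes in brackets. Black bars are list medians, and red diamonds, which are Pcgf1 at 0.34 and Pax5 at −0.28, passed a nominal p under 0.05, whereas grey circles did not.

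PRC2 places the mark that canonical PRC1 reads. Of its 11 measured genes 0 passed a nominal p by limma, where 7.00% of all genes did. Under 0.05 both by the methods' test and by the exact permutation test were 3 (Jarid2, Mtf2 and Eed). Of all genes 7.56% passed by the methods' test and 7.48% by the permutation test. The median difference over the 11 was 0.011. Mtf2 had 0.14 (SE 0.071) with an exact permutation p = 0.0238, and Eed 0.12 (SE 0.068) with p = 0.0476. The other probe set of Eed had 0.076 at a mean of 3.73, below the median probe set. Jarid2, a cofactor of PRC2, differed by −0.077 (SE 0.056) on the log2 scale, with an adjusted p = 0.810 from limma and p = 0.0159 by the exact permutation test, and 4 of its 5 VD(-) values were below all VD(+) values. Of 9 measured genes that polycomb proteins are known to regulate in blood cells, 5 had a positive difference and 1 passed the nominal p as lower. Their median was 0.091. Only 4 of the 9 were above the median probe set. Cdkn2a, the best known target of BMI1, was among those below it, at 4.17 to 4.26 in VD(-) and 4.13 to 4.47 in VD(+), with a log2 fold change of −0.061 (SE 0.073), and its signal is not shown to be above background. Pax5, which fixes the B cell fate, had 6.96, 6.31, 6.75, 6.89 and 6.81 in VD(-) replicates 1, 2 and 3 and pools 1 and 2, against 7.0, 6.88, 7.22, 7.02 and 7.0 in VD(+). Its log2 fold change was −0.28 (SE 0.12), with an adjusted p = 0.684 from limma and p = 0.0238 by the exact permutation test. It did not pass the nominal p by the methods' test, nor without VD(-) replicates 2 or 3, VD(-) pool 2, VD(+) replicates 1 or 3 or either VD(+) pool. It was −0.17 without VD(-) replicate 2 and −0.47 with the Y-linked covariate. Pax5 is itself 1 of 11 measured B cell markers, of which 4 passed the nominal p as lower and 8 in all had a negative difference. Of all genes 7.00% passed it in either direction by limma, and 50.3% had a positive difference. The list mean of the markers was 6.62 to 7.83 in VD(-) and 7.12 to 7.61 in VD(+). Among them 1 passed an adjusted p, Fcer2a at −0.58 (adjusted p = 0.0305 from limma). All 11 B cell markers were above the median probe set, and their part in the value of Pax5 was not tested.

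The genes whose pattern over the 10 arrays was most like that of 4 PRC1 genes were taken from 10299 genes above the median probe set, predicted genes left out, by Pearson's r. For Pcgf1 they were Adarb1, an RNA-editing deaminase (0.92), and Acp6, a lysophosphatidic acid phosphatase (0.90). Acp6 lay between 6.37 and 6.71 in VD(-) and between 6.06 and 6.13 in VD(+). For Bmi1 they were Gtf3c1, a subunit of a factor for RNA polymerase III (0.93), and Slc25a25, a mitochondrial carrier (0.92). For Ring1 they were Wipf2, a regulator of actin assembly (0.94), and the histone methyltransferase gene Ehmt1 (0.91), and for Rnf2 they were Thap6 and the replication factor gene Wdhd1 (0.94 each). These values are the highest of many over arrays that share their processing.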

How the data were processed

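RNA of HSC recipient BM was measured on 5 VD(-) and 5 VD(+) whole-transcript mouse gene arrays, 3 single samples and 2 pools a group. The authors deposited log2 values made with RMA in Partek, per the labels. RMA subtracts background, gives every array an equal distribution and condenses each probe set into a value, so that differences in total RNA are lost. Filters and genome build were not given in the sources used here. No sample column was left out.

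Groups were taken from the sample labels. Genes were named from the array annotation (21789 probe sets with 1 gene, 1621 with several, 12146 with none), using the probe set with the highest mean per gene. A limma 3.58.1 model (R 4.3.3, moderated by eBayes after lmFit) covered all 35556 probe sets, with two-sided p-values adjusted by Benjamini-Hochberg, and log2 fold changes are VD(-) less VD(+). Single genes were also tested by exact permutation over all 252 ways to divide the arrays. The procedure was tested on simulated data.

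The genes and lists were chosen with earlier results of these data known. Named were all PRC1 genes, the members of related lists at a nominal p under 0.05 or otherwise the 2 with the smallest p, and the 2 genes most like each of Pcgf1, Bmi1, Ring1 and Rnf2. Jarid2, Cdkn2a and the partners of PCGF1 were added after their values were seen. Cell type markers were listed for stem and progenitor cells, B cells, neutrophils, erythroid cells, monocytes and macrophages, T and NK cells, megakaryocytes, stroma and endothelium. Of those not given in the report, stem and progenitor cells had a median log2 fold change of −0.12, neutrophils −0.045, erythroid cells 0.015, T and NK cells 0.078, megakaryocytes −0.13, stroma 0.14 and endothelium 0.070. Alternatives were the t-test of the methods, a filter on dim probe sets, cyclic loess, array weights, a trended and robust spread, pool or single as a covariate, single samples alone, the replicate number as a block, Y-linked signal minus Xist as a covariate, averaging a gene's probe sets and dropping each array in turn. The pools alone and the 7 arrays without Y-linked signal (a mean under 4) were added after the data were seen.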

Additional observations from a re-analysis of the deposited data

Results flagged for a closer look

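The lowest array of each of 2 genes stood far from the other 4 of its group. Pcgf6 was 4.82 in VD(-) replicate 1, where the next value was 5.25, and without that array its log2 fold change was 0.17 (adjusted p = 0.794 from limma). Rnf2 was 6.55 in VD(-) replicate 2, where the next value was 6.96, and without that array its log2 fold change was −0.026 (adjusted p = 0.957 from limma). Chance flags about 1 in 20 such groups, and 20 were examined. VD(-) replicate 1 was also the lowest of the 10 arrays for Bmi1, at 6.48.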

How the results depend on the processing

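By limma, 42 probe sets passed an adjusted p under 0.05, against 9 by the methods' t-test, 1 with the single samples alone, 2 with the pools alone, 3 with the replicate number as a block, 25 with Y-linked signal minus Xist as covariate, 12 without the 3 arrays with Y-linked signal and 7 to 43 when 1 array was left out. The number of PRC1 genes at a nominal p under 0.05, with or without the ratio limits of the methods, was 1 in every fit but with the pools alone and without the 3 arrays with Y-linked signal, where each was 0. The gene was Pcgf1 in every such fit but that with the Y-linked covariate, where it was Cbx2. Pcgf1 passed the nominal p in 19 of 22 alternatives, with adjusted p-values from 0.346 to 0.984 over the 22, and no PRC1 gene passed an adjusted p in any of them. The median of the PRC1 genes ran from −0.065 to 0.042.

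The differences of 6 of the 10 PRC1 genes changed sign in at least 1 alternative, and those of Pcgf1, Pcgf3, Pcgf5 and Cbx7 in none. With the Y-linked signal as a covariate, Bmi1 had 0.14, Pcgf2 −0.0050 and Ring1 0.026. Without the 3 arrays with that signal, Bmi1 had 0.14, Pcgf2 −0.016 and Ring1 0.055. With the single samples alone, Ring1 had 0.11 and Pcgf6 −0.053, and with the pools alone Bmi1 had 0.040, Rnf2 0.0064 and Cbx2 0.074. Leaving out 1 array gave −0.13 to 0.086 for Bmi1, −0.076 to 0.12 for Pcgf2 and −0.14 to 0.0066 for Ring1. The cause was not tested. Over all probe sets same-numbered arrays did not deviate together (correlations from −0.052 to 0.061). The labels do not say whether the numbers pair the samples, and these correlations cannot exclude it. With the replicate block Pcgf1 had an adjusted p = 0.611 from limma. The SE of Cbx7 was 0.072 with the block and 0.13 without (adjusted p = 0.716 with it, from limma), and that of Ring1 0.13 with it and 0.12 without. The number of arrays limits the precision.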
